A study of Homo sapiens with 12 samples.

Results

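The genes described here are 10 immediate early genes of the FOS, JUN, EGR, IER and KLF families, out of 60483 genes in the table of counts. They were chosen by name, with earlier results of these data known: FOS, FOSB, FOSL2, JUN, JUNB, JUND, EGR1, IER2, KLF6 and KLF10. Other genes of these families are given further on, and not all of them rose. Symbols were joined by Ensembl identifier, and all 10 were found once each. RNA was sequenced from HUDEP-2, a human erythroid progenitor line immortalized from cord blood, with 3 libraries in each of 4 groups. Control cells (labelled sgSCR, genotype WT) served as reference. Knockout cells (labelled MBD2KO, genotype MBD2-/-) are by these labels knocked out for MBD2, a reader of DNA methylation found in NuRD chromatin complexes. Both kinds of cells were taken before differentiation, as early basophilic erythroblasts, and after it, as late basophilic erythroblasts.

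All groups grew with erythropoietin and doxycycline, which keeps the immortalizing construct of the line active. Before differentiation the medium was SFEM with stem cell factor and dexamethasone. After it the medium was IMDM with human AB serum, insulin, heparin and transferrin. The change of stage is therefore also a change of medium, and their effects cannot be told apart. The time in differentiation medium is 3 days in one label and 5 days in another. Whether the knockout cells were 1 clone, and whether replicates were separate cultures, is not given in the sources used here, so p-values reflect the spread of these libraries alone, which may be technical. Any other difference between the knockout and control lines cannot be told apart from the loss of MBD2. The knockout effect below means the difference between these lines. In bulk RNA, fewer cells with a transcript and less of it per cell cannot be told apart.

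Immediate early genes are switched on within minutes of a growth factor, serum or stress signal, with no need for new protein. Signals pass through MAP kinases to factors already bound at the promoters, such as SRF with its ETS partners, and CREB or ATF proteins. FOS and JUN proteins are basic leucine zipper factors that pair as AP-1, and JUN proteins can also pair with each other. EGR and KLF proteins are zinc finger factors that bind GC-rich DNA, and mRNAs of the group are usually short-lived. In red cell precursors, JUN and related AP-1 proteins are best known downstream of erythropoietin and stem cell factor signalling.

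DNA around the start of a few of these genes is shown because they moved together across the stage change described further on. RefSeq promoter windows of 300 bases (build GRCh38.p14, 250 bases before the start and 50 after it) were matched for 9 of the 10 genes. The stretches of EGR1, FOS, FOSB, JUND and KLF6 lie upstream of the transcript both in RefSeq and in the annotation used for counting. That of JUN lies upstream of the RefSeq start but within the longer JUN exon used for counting. Capitals mark the CArG box (the site of SRF) and TGACG or its reverse complement CGTCA (the core of CREB and ATF sites) in EGR1, chr5:138465229-138465478, plus strand. In FOS, chr14:75278578-75278773, and FOSB, chr19:45467746-45467994, both plus strand, capitals mark TGACG. In JUND, chr19:18281623-18281872, minus strand, capitals mark TGACGTCA (the full CREB and ATF site) and CGTCA. For JUN, chr1:58784096-58784125, and KLF6, chr10:3785363-3785392, both minus strand, 30 bases around TGACATCA, a variant site in capitals, are given.
EGR1: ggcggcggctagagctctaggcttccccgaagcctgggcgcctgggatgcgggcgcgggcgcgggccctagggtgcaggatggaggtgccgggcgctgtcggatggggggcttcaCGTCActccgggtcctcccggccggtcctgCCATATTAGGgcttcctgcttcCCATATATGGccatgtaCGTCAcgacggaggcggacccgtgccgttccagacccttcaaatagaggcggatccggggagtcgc
FOS: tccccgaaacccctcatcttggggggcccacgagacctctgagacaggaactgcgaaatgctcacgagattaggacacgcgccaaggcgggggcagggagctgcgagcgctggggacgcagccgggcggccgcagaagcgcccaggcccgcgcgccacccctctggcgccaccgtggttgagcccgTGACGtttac
FOSB: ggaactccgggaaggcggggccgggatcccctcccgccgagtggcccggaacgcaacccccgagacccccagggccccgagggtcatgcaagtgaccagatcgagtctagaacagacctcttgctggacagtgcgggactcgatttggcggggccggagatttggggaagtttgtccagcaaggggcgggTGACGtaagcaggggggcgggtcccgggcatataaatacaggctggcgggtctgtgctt
JUND: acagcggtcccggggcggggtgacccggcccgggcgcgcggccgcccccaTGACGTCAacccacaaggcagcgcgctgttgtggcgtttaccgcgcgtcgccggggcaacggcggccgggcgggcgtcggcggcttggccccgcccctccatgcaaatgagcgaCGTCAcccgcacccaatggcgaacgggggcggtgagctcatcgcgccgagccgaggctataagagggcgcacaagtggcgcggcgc
JUN: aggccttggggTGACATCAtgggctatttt
KLF6: ttggccggagcTGACATCAtcggcgcgcag

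Motifs were searched on both strands of the 300-base windows and were picked with these sequences in view. TGACG was found in 8 of the 9 windows, all but KLF6, and in 24.6% of 35116 promoters of the same length. The nearest matches lay at similar distances in 4 genes, chosen after the positions were seen: their first bases were at -64 in FOS, -60 in FOSB, -66 in FOSL2 and -66 in EGR1, counted from the start. In JUND, JUN, JUNB and IER2 the nearest lay at -86, -123, -137 and -140. TGACGTCA, which holds TGACG on both strands, was in 1 window, that of JUND, and in 1.85% of all. TGACATCA was in 2 windows, JUN and KLF6, at -67 and -172, and in 2.61% of all. The CArG box was in 1 window, that of EGR1, with 2 matches whose first bases lay at -105 and -83, and in 1.29% of all. Bases more than 250 upstream of the start were not searched, so a window with no match does not show that the gene has no such site. TGANTCA, the AP-1 site itself, was in the FOSL2 window only and in 7.71% of all. GCGNGGGCG, the EGR site, was in EGR1 and KLF6 and in 9.43% of all. CCAAT was in 4 windows, JUN, JUNB, JUND and KLF6, and in 34.6% of all. TATAAA was in FOS, FOSB and JUNB, within 33 bases of the start, and in 11.5% of all. Since MBD2 binds methylated CpG, CpG pairs were counted as well: the 9 windows held 16 (JUN) to 49 (JUND), against a median of 14 over all promoters, and 47.5% of all promoters held 16 or more. TGACG itself holds a CpG, so the 24.6% of all promoters with TGACG is not a share matched for CpG content. A match is a description of these letters, and methylation was not measured in this series.

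Total counts per library ran from 7667997 to 14047498. MBD2 mRNA measured 75.3 to 78.7 CPM (read pairs relative to the library total, scaled with TMM factors) in control and 19.8 to 24.5 in knockout libraries before differentiation. After it, MBD2 measured 58.2 to 61.4 against 14.6 to 16.8, so no knockout library overlapped a control library. Some MBD2 mRNA thus remained in each knockout library, and mRNA alone does not show whether the protein was lost. None of 15 erythroid markers was at 0 counts in any group, and their summed level was 9055 to 14130 CPM in control and 9802 to 15510 in knockout libraries before, and 11190 to 14000 and 22380 to 34480 after. This sum rests largely on TFRC and HBA2. After differentiation TFRC measured 6817 ± 303 CPM in control and 11768 ± 327 in knockout cells. HBA2 measured 1425 ± 940 and 5699 ± 5038 CPM, a wide scatter between libraries. The lymphoid and stromal marker lists, 10 genes each, summed to at most 0.947 and 2.33 CPM in any library, with CD3E at 0 counts in all 4 groups. Mast cell and basophil markers summed to 956 to 1010 CPM in control and 749 to 778 in knockout libraries before, and 683 to 697 and 386 to 412 after. Most of this sum was KIT, so it is not a measure of mast cells. KIT measured 741 ± 29.4 CPM in control and 662 ± 11.9 in knockout cells before, and 586 ± 7.23 and 370 ± 10.9 after. FCER1A was at 0 counts in control before, and CLC in knockout cells at both stages. Neutrophil and monocyte markers summed to at most 41.9 CPM, and megakaryocyte markers to at most 64.4 CPM.

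Each of the 10 genes passed the filter on low counts, with no library below 22 counts for any of them. JUNB (ENSG00000171223.5, hg38 chromosome 19, 12791496 to 12793315, plus strand) and JUND (ENSG00000130522.5, chromosome 19, 18279760 to 18281622, minus strand) were the most abundant. Per kilobase of exon, control cells before differentiation held 27.3 ± 1.47 CPM per kilobase of JUNB and 26.3 ± 1.25 of JUND (SD, n = 3), whose libraries overlapped. Next came IER2 with 7.08 ± 0.631, apart from both neighbours. KLF6, FOS, KLF10 and JUN followed with 3.36 ± 0.796, 2.79 ± 0.666, 2.30 ± 0.254 and 2.13 ± 0.0832 CPM per kilobase, and each overlapped the next. FOSB (1.49 ± 0.125), EGR1 (0.831 ± 0.0909) and FOSL2 (0.501 ± 0.0404) were the lowest, each apart from the next. The same 3 genes led in every group, and EGR1 and FOSL2 were last in every group. In knockout cells after differentiation, IER2 (13.7 ± 1.26), KLF6 (13.2 ± 0.967) and KLF10 (13.2 ± 0.151) followed, each overlapping the next. Other genes overlap 946 of the 3072 exon bases of IER2 and 259 of the 1820 of JUNB. Levels per kilobase of these genes, and their order beside close neighbours, are therefore uncertain.

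**Figure D1:**
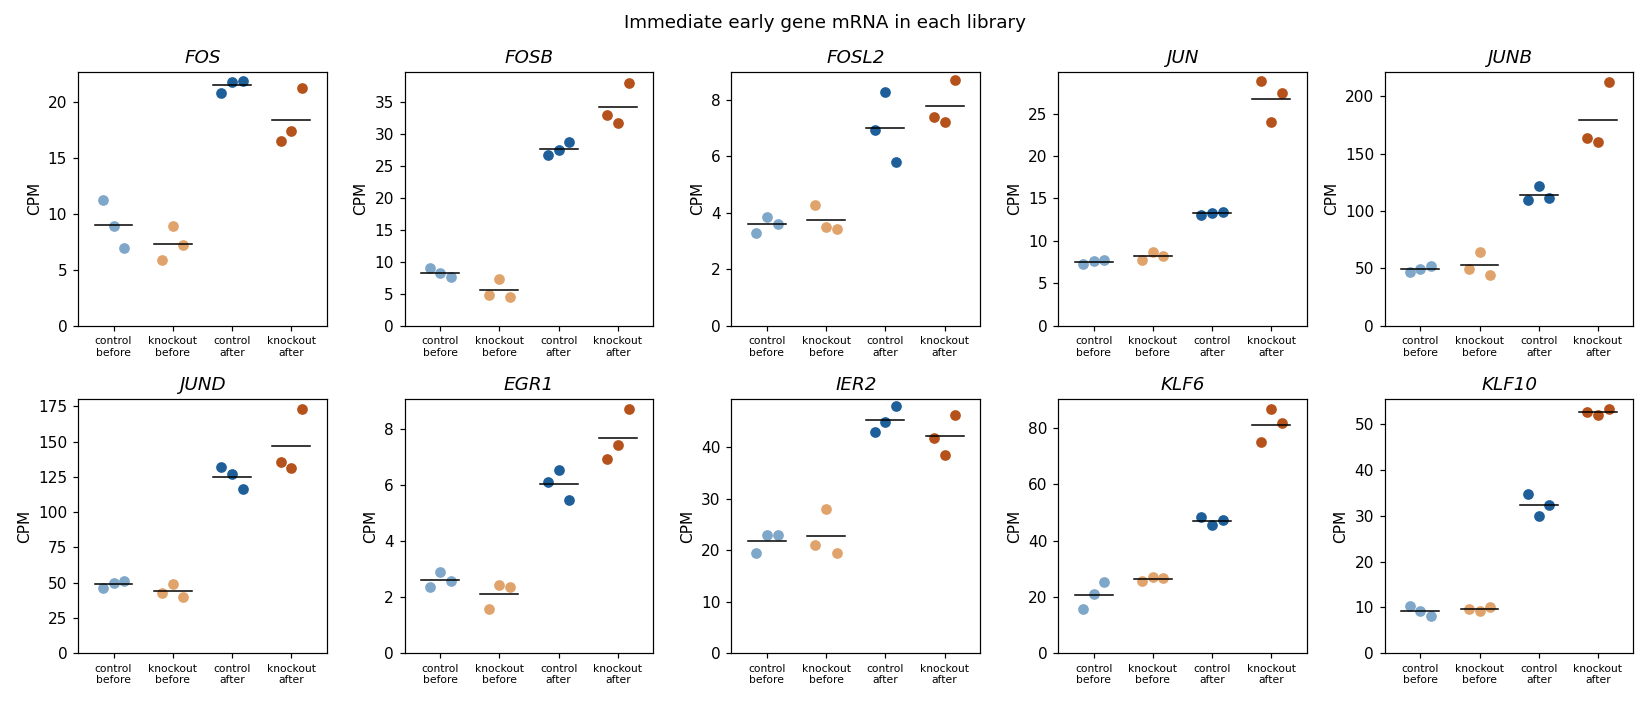
Level of each of the 10 immediate early genes in CPM (vertical axis, from 0) in the 4 groups. Points are libraries in replicate order and lines are group means (n = 3). In all 10 panels the libraries after differentiation lie above those of the same genotype before it.

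Differentiation was compared first, in control cells. Every one of the 10 genes rose after the change of stage, between 1.75-fold (JUN) and 3.52-fold (KLF10), and in each gene the lowest library after lay above the highest before. The test called 10 of 10 higher and 0 lower (0 lower also at an unadjusted p under 0.05 and with DESeq2), where 21.5% of 17175 genes tested were called higher and 22.3% lower. Libraries were apart and higher in 26.8% of all genes, and apart and lower in 27.2%. Their median log2 fold change was 1.203, against 0.01 over all genes tested. In the same comparison 11 of 15 erythroid markers were called higher and 5 of 7 mast cell markers tested lower. KIT and GATA2 were among those 5, and the 2 not called were TPSAB1 (-0.19, adjusted p = 0.342) and TPSB2 (-0.15, adjusted p = 0.360). Ribosomal RNA genes took 0.394 to 1.08% of counts before and 0.562 to 1.05% after. The part of these markers and of ribosomal RNA in these results was not tested.

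Among the FOS genes, which bind DNA mainly as partners of JUN proteins, FOSB (ENSG00000125740.12, chromosome 19, 45467995 to 45475179, plus strand) moved most. It measured 9.01, 8.26 and 7.62 CPM in control libraries before and 26.6, 27.5 and 28.6 CPM after differentiation. The groups lay far apart, and the log2 fold change was 1.73 ± 0.14 (SE; adjusted p = 3.52e-08). FOS (ENSG00000170345.8, chromosome 14, 75278774 to 75282230, plus strand), the founding member of AP-1, measured 11.3, 8.94 and 6.95 CPM before and 20.8, 21.8 and 21.9 CPM after. The libraries before differentiation were scattered and those after it close together, and the log2 fold change was 1.25 ± 0.16 (adjusted p = 7.49e-06). FOSL2 (ENSG00000075426.10, chromosome 2, 28392448 to 28417312, plus strand), a longer-lived FOS relative, measured 3.28, 3.86 and 3.62 CPM before and 6.94, 8.28 and 5.79 CPM after. Its log2 fold change was 0.97 ± 0.17 (adjusted p = 2.23e-04).

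JUN proteins can bind DNA as pairs of their own kind or with FOS proteins. JUN itself (ENSG00000177606.6, chromosome 1, 58780788 to 58784327, minus strand), the strong activator of the family, measured 7.22, 7.58 and 7.81 CPM in control libraries before and 13.03, 13.3 and 13.4 CPM after. These are tight groups, and the log2 fold change of 0.81 ± 0.11 (adjusted p = 2.22e-05) was the smallest of the 10. JUNB, which often restrains JUN, measured 47.3, 49.1 and 52.6 CPM before and 109.9, 122 and 111 CPM after, a log2 fold change of 1.204 ± 0.12 (adjusted p = 5.56e-07). JUND, usually present in resting cells, measured 46.3, 49.6 and 50.8 CPM before and 132, 127 and 117 CPM after, a log2 fold change of 1.35 ± 0.10 (adjusted p = 1.56e-08). JUNB and JUND were close in level at both stages in these cells. Of the 1820 exon bases of JUNB, 259 overlap HOOK2 on the other strand, and the counting had no option for strand, so read pairs there are uncertain.

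The zinc finger and IER genes followed the same direction. EGR1 (ENSG00000120738.7, chromosome 5, 138465490 to 138469315, plus strand), a classic target of SRF, measured 2.35, 2.91 and 2.57 CPM before and 6.09, 6.54 and 5.47 CPM after in control libraries. Its log2 fold change was 1.201 ± 0.19 (adjusted p = 6.03e-05), and at 25 to 90 counts per control library its standard error was the largest of the 10. IER2 (ENSG00000160888.6, chromosome 19, 13150415 to 13154908, plus strand), a nuclear protein induced early by growth factors, measured 19.5, 22.9 and 22.9 CPM before and 42.9, 44.8 and 47.9 CPM after, a log2 fold change of 1.05 ± 0.12 (adjusted p = 1.55e-06). An unnamed antisense gene, AC011446.2, covers 946 of the 3072 exon bases of IER2, with the same limit as for JUNB.

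KLF6 (ENSG00000067082.13, chromosome 10, 3775996 to 3785281, minus strand), a widely expressed zinc finger activator, measured 15.6, 21.1 and 25.3 CPM before and 48.4, 45.5 and 47.4 CPM after in control libraries. Control libraries before differentiation were spread for this gene, and the log2 fold change was 1.19 ± 0.12 (adjusted p = 4.60e-07). KLF10 (ENSG00000155090.13, chromosome 8, 102648779 to 102655902, minus strand), a repressor induced early by TGF-beta, measured 10.2, 9.21 and 8.19 CPM before and 34.9, 30.1 and 32.4 CPM after. Its rise, 1.81 ± 0.10 (adjusted p = 3.22e-10), was the steepest of the 10.

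Differentiation was then compared in knockout cells, where all 10 genes rose with no overlap between libraries. The test called 10 of 10 higher and 0 lower (0 lower also at an unadjusted p under 0.05 and with DESeq2), where 28.0% of genes tested were called higher and 27.7% lower. Libraries were apart and higher in 30.3% of all genes, and apart and lower in 29.7%. The median log2 fold change was 1.72, against 0.03 over all genes. Ribosomal RNA genes took 0.842 to 1.29% of counts before and 1.68 to 2.74% after, 12 of 15 erythroid markers were called higher, and 7 of 7 mast cell and 6 of 7 neutrophil and monocyte markers tested were called lower. Their part in these results was not tested. FOSB rose 6.17-fold, from 4.84, 7.36 and 4.43 CPM to 32.9, 31.6 and 38.0 CPM, a log2 fold change of 2.63 ± 0.15 (adjusted p = 2.13e-10). KLF10 rose 5.50-fold, from 9.53, 9.16 and 10.0 CPM to 52.8, 52.1 and 53.3 CPM, a log2 fold change of 2.46 ± 0.10 (adjusted p = 3.35e-12). These were the steepest rises of the group in knockout cells.

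The other rises in knockout cells ran from 0.89 ± 0.12 for IER2 (adjusted p = 7.20e-06) to 1.86 ± 0.20 for EGR1 (adjusted p = 4.15e-07). JUN rose from 7.80, 8.71 and 8.23 CPM to 28.8, 24.0 and 27.4 CPM, 1.70 ± 0.11 on the log2 scale. JUNB rose from 49.6, 64.6 and 44.2 CPM to 164, 160.2 and 213 CPM, with knockout replicate 2 highest before and replicate 3 highest after. FOS and FOSL2, rose by 1.33 ± 0.17 and 1.04 ± 0.18, beside 1.25 ± 0.16 and 0.97 ± 0.17 in control cells. With library sizes alone in place of TMM factors, the median of all genes in this comparison moved from 0.03 to -0.16, and all 10 were still called higher. Replicate 3 of the knockout after differentiation stood above its group mean for 10 of the 10 genes, by a median of 0.16 on the log2 scale, and all 10 calls held without it.

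**Figure D2:**
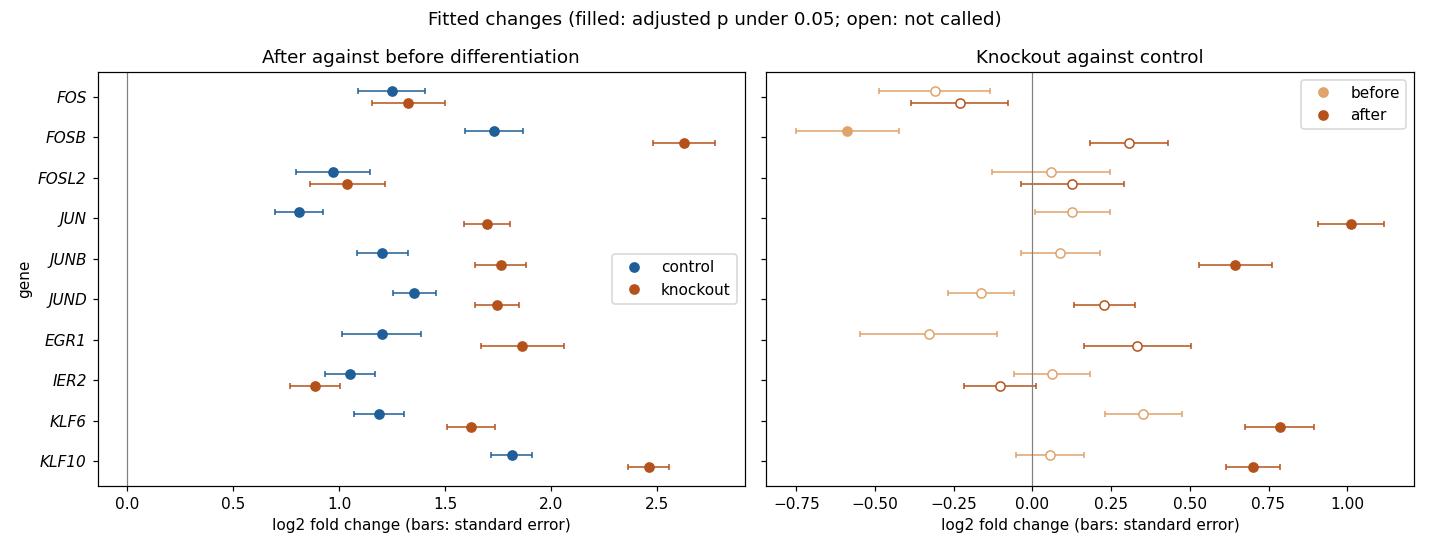
Fitted log2 fold changes with their standard errors (horizontal axis) for the 10 genes, after against before differentiation in control and knockout cells (left) and knockout against control before and after differentiation (right). On the left every point lies above 0.8 on the log2 scale, and on the right the filled points are FOSB before, and JUN, JUNB, KLF6 and KLF10 after differentiation.

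Knockout and control cells were compared next, before differentiation, where little moved among the 10 genes. FOSB was lower in knockout cells, at 4.84, 7.36 and 4.43 CPM against 9.01, 8.26 and 7.62 CPM in control libraries. The groups did not overlap, and the log2 fold change was -0.59 ± 0.16 (adjusted p = 0.0191). The test called 1 of the 10 lower and 0 higher (1 higher at an unadjusted p under 0.05, and 1 with DESeq2), where 8.15% of genes tested were called lower and 9.07% higher. Libraries were apart in 1 gene higher (KLF6) and 1 lower, where 15.3% and 15.4% of all genes were. Those counts are near the background. The median of the 10 was 0.06, against -0.004 over all genes tested. Cell type markers did move: 9 of 15 erythroid, 5 of 7 neutrophil and monocyte and 2 of 2 megakaryocyte markers tested were called higher. Of 7 mast cell markers tested, 4 were called lower. Their part in these results was not tested.

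The FOSB call was not firm: it was lost without control replicate 1 (adjusted p = 0.0689) or 2 (0.0525), without knockout replicate 1 (0.0729) or 3 (0.0760), and in a fit of these groups alone (0.0806). KLF6 measured 25.7, 26.9 and 26.5 CPM in knockout libraries, just above the 15.6, 21.1 and 25.3 CPM of control libraries, a log2 fold change of 0.35 ± 0.12 (adjusted p = 0.0585). It passed with DESeq2 (adjusted p = 0.0463), with no filter (0.0142) and without control replicate 3 (0.00470, log2 fold change 0.50). The remaining 8 genes measured between -0.33 (EGR1) and 0.13 (JUN), all with overlapping libraries. FOS was -0.31 ± 0.18 (adjusted p = 0.267) and JUND -0.16 ± 0.10 (adjusted p = 0.339), neither called.

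After differentiation the same comparison set the 10 genes apart from each other. JUN was 2.02-fold higher in knockout cells, KLF6 1.72-fold, KLF10 1.63-fold and JUNB 1.56-fold, while FOS, FOSL2, IER2 and JUND overlapped between the genotypes. The test called 4 of 10 higher and 0 lower (0 lower also at an unadjusted p under 0.05 and with DESeq2), where 16.8% of genes tested were called higher and 16.3% lower. The median of the 10 was 0.32, against -0.01 over all genes.

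JUN measured 28.8, 24.0 and 27.4 CPM in knockout libraries against 13.03, 13.3 and 13.4 CPM in control libraries. Its lowest knockout library stood well above every control library, and the log2 fold change was 1.01 ± 0.10 (adjusted p = 8.83e-07). JUNB measured 164, 160.2 and 213 CPM against 109.9, 122 and 111 CPM, a log2 fold change of 0.64 ± 0.12 (adjusted p = 3.73e-04). Its groups were apart, with replicate 3 of the knockout the highest. KLF6 measured 74.9, 86.7 and 81.7 CPM against 48.4, 45.5 and 47.4 CPM, a log2 fold change of 0.79 ± 0.11 (adjusted p = 2.75e-05). KLF10 measured 52.8, 52.1 and 53.3 CPM against 34.9, 30.1 and 32.4 CPM, a log2 fold change of 0.70 ± 0.09 (adjusted p = 6.39e-06), with the knockout libraries almost equal.

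Not called after differentiation were FOSB at 0.31 ± 0.12 (adjusted p = 0.0684), JUND at 0.23 ± 0.10 (0.0837), EGR1 at 0.33 ± 0.17 (0.145), FOSL2 at 0.13 ± 0.16 (0.599), IER2 at -0.10 ± 0.11 (0.530) and FOS at -0.23 ± 0.15 (0.274). FOSB and EGR1 libraries did not overlap: FOSB measured 32.9, 31.6 and 38.0 CPM against 26.6, 27.5 and 28.6 CPM, and EGR1 6.92, 7.43 and 8.72 CPM against 6.09, 6.54 and 5.47 CPM. FOSB passed in a fit of these groups alone (adjusted p = 0.0153) and without knockout replicate 2 or 3 from before differentiation (0.0142 and 0.0480). JUND passed without knockout replicate 2 from before (0.0494) or after differentiation (0.0431). In all, 6 of 10 were higher with no overlap, and 0 lower, where 23.2% and 23.6% of genes tested were.

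Some measures of the libraries moved with this comparison. Ribosomal RNA genes took 1.68 to 2.74% of counts in knockout libraries after differentiation against 0.562 to 1.05% in control libraries, and the TMM factors were 0.883 to 0.931 against 1.01 to 1.03. With library sizes alone the median of all genes moved from -0.01 to -0.17, and JUN, JUNB, KLF6 and KLF10 were still called higher, while FOSL2 measured -0.03. Erythroid markers were higher as well, with 14 of 15 called higher and 0 lower, and mast cell markers lower, with 6 of 7 tested called lower. The part of these in the results on immediate early genes was not tested.

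Whether the knockout effect differed between the stages was tested directly as an interaction, the effect after minus the effect before. FOSB gave 0.89 ± 0.21 (adjusted p = 0.00784), JUN 0.89 ± 0.16 (adjusted p = 0.00136), KLF10 0.65 ± 0.14 (adjusted p = 0.00522) and JUNB 0.56 ± 0.17 (adjusted p = 0.0409). These 4 of 10 were called higher and 0 lower (0 lower also at an unadjusted p under 0.05 and with DESeq2), where 6.28% of genes tested were called higher and 6.68% lower. For FOSB the fitted effects had opposite signs, lower before and higher after differentiation, and only the first was called. The same contrast reads as a steeper rise on differentiation in knockout than in control cells. JUNB passed narrowly: 7 of 12 fits without 1 library lost its call.

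JUND (0.39 ± 0.14, adjusted p = 0.0842), KLF6 (0.43 ± 0.16, adjusted p = 0.0950) and EGR1 (0.66 ± 0.28, adjusted p = 0.129) had positive values that were not called. KLF6 passed without control replicate 1 from before differentiation (0.60, adjusted p = 0.00584), the library with its lowest level, and JUND without knockout replicate 2 from before (0.48, adjusted p = 0.0293). FOS (0.08 ± 0.23, adjusted p = 0.872), FOSL2 (0.07 ± 0.25, adjusted p = 0.900) and IER2 (-0.17 ± 0.17, adjusted p = 0.578) lay near 0 for their errors. JUNB with library sizes alone was not called (0.43, adjusted p = 0.127), where the median of all genes moved from -0.011 to -0.145.

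Since AP-1 pairs draw on whichever members are present, the share of each mRNA in its family was computed per library from counts per kilobase of exon. These are shares of mRNA, and the make-up of AP-1 protein pairs was not measured here. JUN mRNA was a small part of its family everywhere: 3.83 ± 0.0422% in control and 4.30 ± 0.526% in knockout cells before (SD, n = 3), and 2.8 ± 0.140% and 4.14 ± 0.605% after. JUNB took 49.0 ± 0.558% and 52.7 ± 2.21% before, and 47.0 ± 1.89% and 53.2 ± 0.497% after. JUND took 47.2 ± 0.533% and 43.0 ± 1.74% before, and 50.2 ± 1.94% and 42.6 ± 0.110% after. In control cells after differentiation JUND was at 52.5, 49.1 and 49.1% of the family, and in knockout cells at 42.5, 42.7 and 42.7%, so that JUNB led in each knockout library and JUND in each control library. JUNB was at 44.8, 48.2 and 47.9% in these control libraries, so the lead of JUND was small in some. Of the 1820 exon bases of JUNB, 259 overlap HOOK2, where read pairs are uncertain. The order of JUNB and JUND in control cells is therefore uncertain.

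The FOS family, with FOSL1 added as its other member, shifted differently. FOS took 46.0 ± 0.384% in control and 39.4 ± 0.740% in knockout cells after differentiation, and FOSB 34.4 ± 0.866% and 42.8 ± 2.04%. Per kilobase FOS led FOSB in all 3 control libraries and FOSB led FOS in all 3 knockout libraries. That order rests on the division by exon length (3238 bases for FOS and 5553 for FOSB): in CPM, FOSB was above FOS in each of these libraries of both genotypes. Before differentiation FOS took 49.4 ± 6.21% and 49.0 ± 3.65%, and FOSB 26.8 ± 1.89% and 21.4 ± 2.70%. With 3 libraries a group, the smallest p of a two-sided exact permutation test is 0.1. Of 28 such tests of a share, 16 reached 0.1 (adjusted p = 0.175), among them JUN, JUNB, JUND, FOS and FOSB after differentiation, so none could pass. Shares of a family move against each other by construction.

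**Figure D3:**
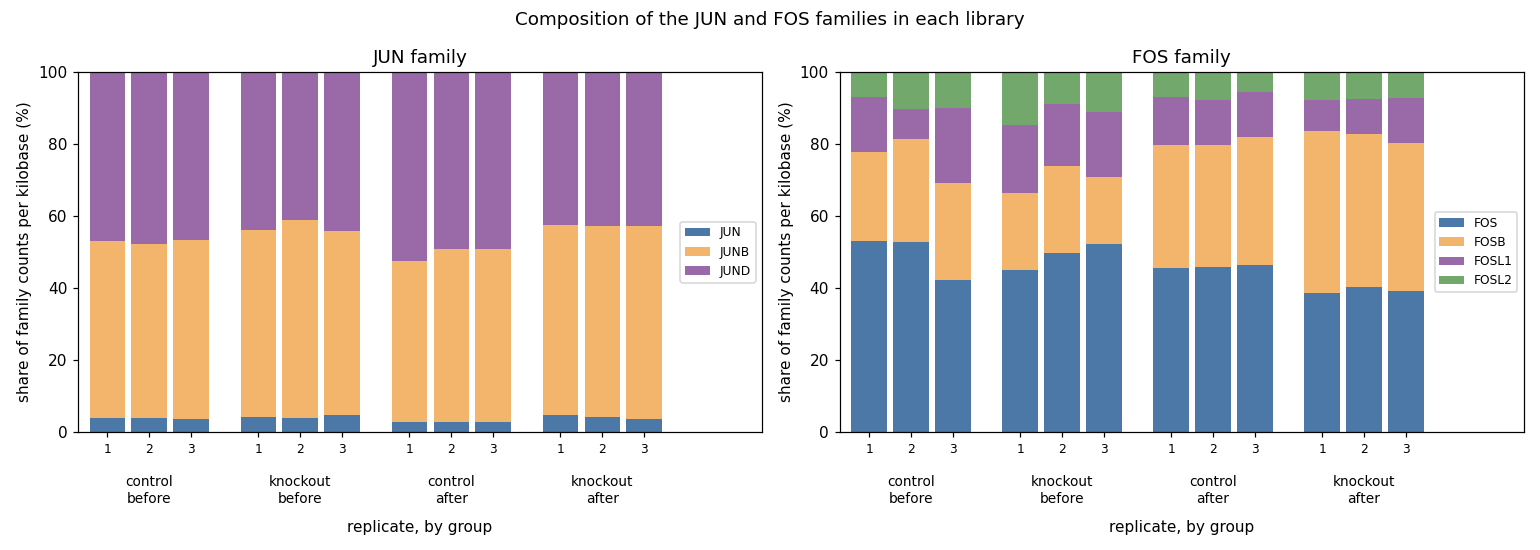
Share of each mRNA in the summed counts per kilobase of the JUN family (left) and FOS family (right), in percent, 1 bar per library. After differentiation the JUND part is 49.1 to 52.5% in control and 42.5 to 42.7% in knockout libraries, and the FOSB part is 33.8 to 35.4% and 40.9 to 45.0%.

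JUN family mRNA exceeded FOS family mRNA in every library. Per kilobase, the ratio of the summed families was 8.07 to 11.5 in control and 11.2 to 12.9 in knockout libraries before differentiation, which overlap. After it the ratio was 8.75 to 9.57 in control and 12.3 to 13.1 in knockout libraries, which do not. The FOS family summed to 14.4 ± 0.305 CPM per kilobase in control and 14.4 ± 1.97 in knockout cells after differentiation, and the JUN family to 134 ± 5.70 and 185 ± 28.8.

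Other genes of the response were read from fixed lists. Over all genes tested, the shares called higher and lower on differentiation were 21.5% and 22.3% in control and 28.0% and 27.7% in knockout cells, and for knockout against control 9.07% and 8.15% before and 16.8% and 16.3% after. Of 40 other immediate early genes 34 were tested, and on differentiation 25 rose and 2 fell in control cells and 25 rose and 2 fell in knockout cells, with medians of 1.12 and 1.67. In control cells the smallest adjusted p belonged to the stress-induced factor ATF3, at 3.47 ± 0.17 (1.32e-10), IER5 at 1.59 ± 0.08 (2.802e-10), the growth arrest gene GADD45B at 1.91 ± 0.12 (1.72e-09) and the kinase SGK1 at 1.55 ± 0.10 (2.44e-09). In knockout cells these 4 measured 3.89 ± 0.15, 1.92 ± 0.09, 2.65 ± 0.13 and 2.20 ± 0.10. ATF3 went from 1.32 ± 0.24 to 14.9 ± 0.53 CPM in control cells and from 2.00 ± 0.38 to 30.1 ± 3.26 CPM in knockout cells. Those that fell, named after their values were seen, were NFKBIA (-0.40) and MCL1 (-0.19) in control cells, and NFKBIA (-0.55) and ZFP36L2 (-0.49) in knockout cells. Without TMM factors the counts in knockout cells were 23 and 4.

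Knockout against control, the same list had calls both ways. Before differentiation 2 of 34 rose and 7 fell, where 9.07% and 8.15% of all genes did, led by GADD45A at 0.71 ± 0.12 (adjusted p = 3.43e-04), RHOB, a small GTPase, at -0.59 ± 0.11 (0.00117), GADD45B at -0.65 ± 0.14 (0.00282) and BTG1, which restrains proliferation, at -0.56 ± 0.13 (0.00636). After it 9 rose and 2 fell, where 16.8% and 16.3% of all genes did, led by GADD45A at 1.23 ± 0.10 (adjusted p = 6.32e-08), the MAP kinase phosphatase DUSP1 at 0.91 ± 0.08 (1.79e-07), BTG2 at 1.49 ± 0.16 (1.38e-06) and ATF3 at 1.01 ± 0.12 (3.95e-06). Library sizes alone gave 8 and 4. In the interaction 11 were higher and 2 lower, where 6.28% and 6.68% of all genes were. Library sizes alone gave 6 and 2, beside 644 and 2146 of all genes tested. BTG1 measured 1.49 ± 0.17 (adjusted p = 3.18e-05) and RHOB 0.87 ± 0.15 (adjusted p = 9.82e-04) in the main fit.

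Among other basic leucine zipper genes with AP-1-like binding, 13 of 19 were tested. On differentiation 10 rose and 0 fell in both genotypes, where 21.5% of all genes rose in control and 28.0% in knockout cells, among them ATF3, MAFF at 1.88 ± 0.17 in control and 2.33 ± 0.17 in knockout cells, and ATF4 at 0.91 ± 0.09 and 1.19 ± 0.09. The erythroid factor NFE2, whose site resembles that of AP-1, rose to 108 ± 2.69 CPM in control and 232 ± 16.2 CPM in knockout cells, from 71.5 ± 5.51 and 106 ± 1.95 CPM. Knockout against control, with 9.07% of all genes higher before and 16.8% after, 3 rose and 0 fell before (NFE2 at 0.58 ± 0.07, BACH1 at 0.27 ± 0.07 and NFE2L1 at 0.32 ± 0.10) and 6 rose and 1 fell after differentiation, led by NFE2 at 1.10 ± 0.07 (adjusted p = 1.98e-09) and the heme-sensing repressor BACH1 at 0.84 ± 0.07 (5.52e-08). The 1 that fell was ATF2 (-0.33), named after its value was seen.

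Of 6 listed EGR family genes and corepressors 4 were tested, and on differentiation 0 rose and 2 fell in control cells (NAB1 and NAB2) and 0 rose and 3 fell in knockout cells (WT1 as well), where 22.3% and 27.7% of all genes fell. NAB2, a corepressor that binds EGR1 and is itself an EGR target, fell by 1.06 ± 0.14 on the log2 scale in control (adjusted p = 1.11e-05) and by 2.04 ± 0.14 in knockout cells (adjusted p = 3.58e-09), from 17 ± 2.58 to 8.11 ± 0.77 CPM and from 29.7 ± 3.88 to 7.22 ± 0.68 CPM. Its partner NAB1 fell by 0.77 ± 0.14 and 0.68 ± 0.14. Before differentiation NAB2 was higher in knockout cells (0.80 ± 0.12, adjusted p = 1.72e-04), the 1 gene of this list called there, and after it WT1 was lower (-1.33 ± 0.16, adjusted p = 5.13e-06). EGR2 was tested and not called in any of these comparisons. On differentiation it measured -0.22 ± 0.31 in control and -0.36 ± 0.29 in knockout cells, unlike the rise of EGR1.

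Other KLF genes gave a mixed picture, with 10 of 14 tested. In control cells 5 rose and 2 fell on differentiation, and in knockout cells 7 rose and 3 fell, where 21.5% and 22.3% of all genes did in control and 28.0% and 27.7% in knockout cells. KLF3 rose by 0.42 ± 0.06 and 0.95 ± 0.06, while KLF15, at -1.91 ± 0.21 and -3.74 ± 0.25, fell in both. Knockout against control, 5 rose and 1 fell before, where 9.07% and 8.15% of all genes did, and 5 rose and 2 fell after, where 16.8% and 16.3% did. Those after differentiation were led by KLF3 at 0.98 ± 0.06 (adjusted p = 1.63e-09), the glucocorticoid-responsive KLF9 at 1.54 ± 0.10 (1.97e-09), KLF13 at 1.22 ± 0.10 (5.55e-08) and KLF11, the closest relative of KLF10, at 0.77 ± 0.08 (1.61e-06).

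Genes upstream of the response were read against the same shares of all genes on differentiation, 21.5% higher and 22.3% lower in control and 28.0% and 27.7% in knockout cells. For knockout against control these shares were 9.07% and 8.15% before and 16.8% and 16.3% after. Of 15 factors that drive immediate early genes, all tested, 4 rose and 1 fell on differentiation in control cells and 5 rose and 3 fell in knockout cells. CREB1, which binds the TGACG core printed above, rose by 0.53 ± 0.08 (adjusted p = 2.97e-05) and 1.05 ± 0.08 (adjusted p = 5.88e-09). After differentiation 4 were higher and 2 lower in knockout cells, led by the coactivators EP300 at 0.69 ± 0.09 (adjusted p = 1.15e-05) and CREBBP at 0.69 ± 0.09 (adjusted p = 1.92e-05), and before it 0 rose and 2 fell (ELK4 at -0.33 ± 0.07 and ELK3 at -1.12 ± 0.29). SRF, which binds the CArG box, measured 19.7 ± 0.87 and 19.9 ± 4.36 CPM before and 16.7 ± 2.04 and 15.9 ± 2.63 CPM after in control and knockout cells. Without TMM factors this list gave 2 and 2 in control cells and 5 and 5 in knockout cells on differentiation, and 3 and 2 for knockout against control after it.

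In the MAP kinase cascade, with 23 of 25 tested, 3 rose and 8 fell on differentiation in control cells and 7 rose and 7 fell in knockout cells, the latter near the 28.0% and 27.7% of all genes. MAP3K1, a kinase upstream of JNK, fell by 0.77 ± 0.07 and 1.05 ± 0.07 on the log2 scale, and BRAF rose by 0.44 ± 0.08 and 0.74 ± 0.08. Knockout against control, 2 rose and 1 fell before, where 9.07% and 8.15% of all genes did, and 4 rose and 2 fell after, where 16.8% and 16.3% did. Those counts were near or below the shares of all genes. MAP2K3, which activates p38, measured 0.71 ± 0.16 before and 1.07 ± 0.15 after. With library sizes alone the split was 2 and 11 in knockout cells on differentiation and 2 and 6 for knockout against control after it, so directions for this list depend on the scaling. Of 15 feedback inhibitors 11 were tested: 2 rose and 2 fell in control cells and 2 rose and 5 fell in knockout cells. DUSP1 rose by 1.12 ± 0.09 and 1.66 ± 0.08, while SPRY2, an inhibitor of RAS signalling, fell by 1.42 ± 0.14 and 1.57 ± 0.17. In knockout against control cells 1 rose (DUSP1) and 3 fell at each stage (SPRED1, SPRY2 and DUSP5 before, and SPRED1, SPRED2 and SPRY2 after), or 1 before with DESeq2.

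**Figure D4:**
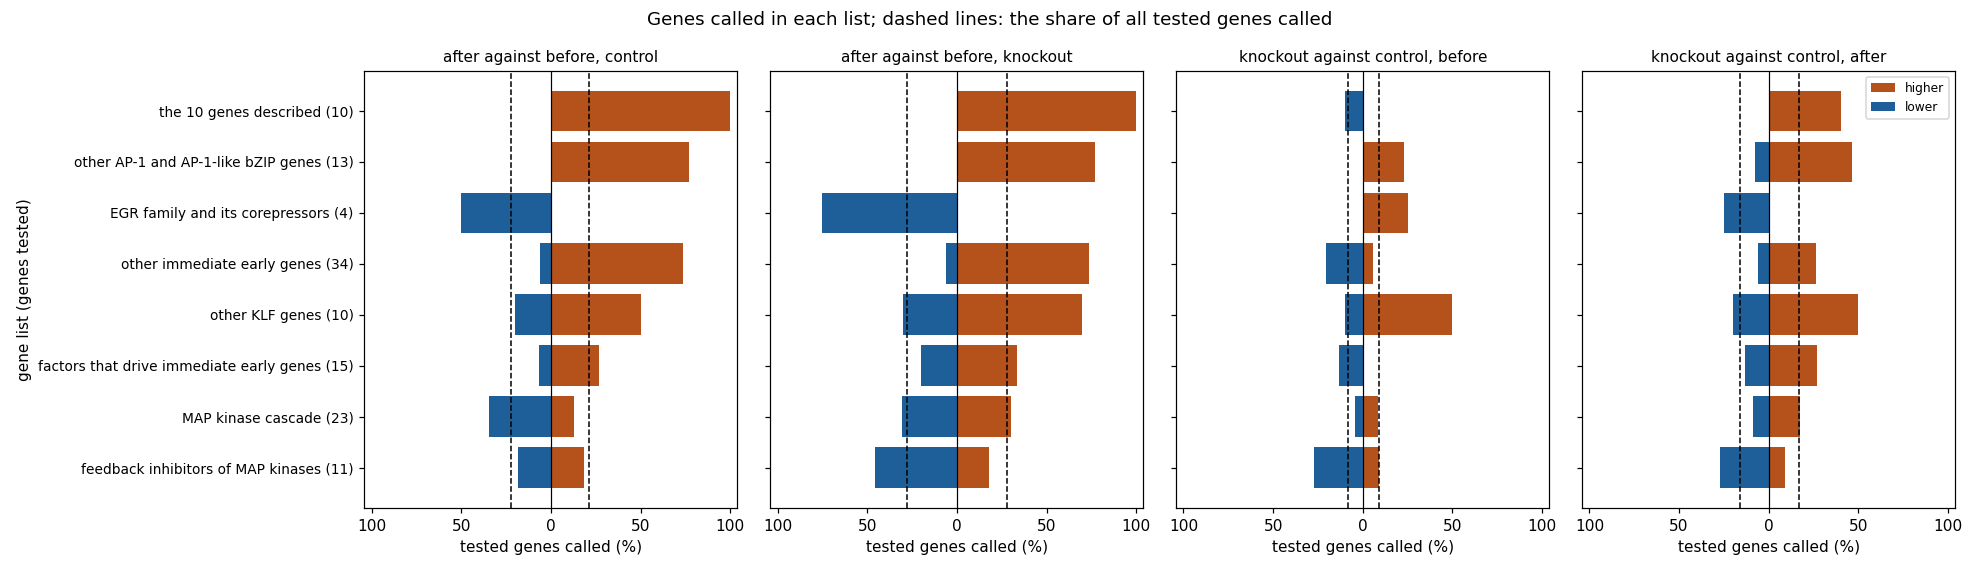
Percent of tested genes called higher (right of 0) or lower (left of 0) in each list and in the 10 genes described, for the 4 comparisons, with dashed lines at the share of all 17175 tested genes called. On differentiation the bars for the 10 genes cover all of them, and 25 of 34 other immediate early genes were called higher in each genotype.

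How alike the 10 genes were was described by Pearson r of log2 CPM over the 12 libraries, which share the 4 groups, so that any gene with a stage effect correlates with others. Among the 10, r ran from 0.743 (FOS with JUN) to 0.984 (FOSB with JUND). Over 9739 other protein-coding genes averaging 2 or more on the log2 CPM scale, the nearest to FOSB were RHOB (r = 0.994) and KCNN4 (0.992), to JUNB CITED2 (0.996) and PPP1R15A (0.995), and to KLF10 EPM2AIP1 (0.998) and FBXW7 (0.995). The nearest to JUN were HJURP (0.993) and ZBTB43 (0.993), to JUND FAM83D (0.994) and NT5M (0.991), and to KLF6 MAN2A2 (0.988) and TRIP4 (0.988). The nearest to FOS were SRSF5 (0.980) and AP002495.1 (0.973), to FOSL2 KMT5A (0.975) and MEI1 (0.973), and to EGR1 PPP1R10 (0.987) and ATP9A (0.986).

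The median coefficient of variation of CPM over the 10 was 8.65% and 16% in control and knockout libraries before differentiation, and 5.62% and 10.2% after, against 10%, 12.1%, 8.96% and 10.8% over all genes tested. Before differentiation, replicate 2 of the knockout stood above its group mean for 8 of 10 genes, by a median of 0.19 on the log2 scale. Without it JUNB measured -0.08 and IER2 -0.11 in knockout against control before differentiation, in place of 0.09 and 0.06, none of them called.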

How the data were processed

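Counts of read pairs over exons per gene were deposited by the authors with no normalization. Per the file headers they were made with featureCounts 1.4.6-p4 in GENCODE release 22, with no option for strand or overlapping genes; per the submitters' processing notes it was featureCounts 1.2.6, beside Subread 1.6.2, Trimmomatic, FastQC, build hg38 and edgeR 3.18.1. Exon lengths came from the same deposited table. GENCODE release 29 gave symbols to 56753 of 60483 identifiers.

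The test was edgeR 4.0.16 (R 4.3.3) on these counts: filterByExpr kept 17175 genes, libraries were scaled with TMM, and a mean per group was fitted to the 12 libraries together (glmQLFit, two-sided glmQLFTest). A gene was called where its p, adjusted by Benjamini and Hochberg across the genes tested, was under 0.05, and every adjusted p of a gene comes from this fit unless an alternative is named beside it. A standard error is the log2 fold change divided by the square root of F. The procedure was tested on simulated data, and the outcome is not reported here. Log2 CPM for correlations used a prior count of 2.

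Named were the 10 genes, MBD2, up to 4 called genes with the smallest adjusted p per list and comparison, with further examples from those lists, and the 2 nearest genes by r (those of IER2 are not reported here). The genes and lists were chosen with earlier results of these data known. Alternatives were library sizes without TMM, DESeq2 1.42.0, no filter, only the groups compared, a replicate block, and leaving out each library. Chi-square per degree of freedom between replicates was at least 5.30, so none was a repeat deposit.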

Additional observations from a re-analysis of the deposited data

Results flagged for a closer look

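The knockout effect differed between the stages, by the test of the interaction in edgeR, for 4 of the 10 immediate early genes. The effect after differentiation minus the effect before it was 0.895 on the log2 scale for FOSB (adjusted p = 0.00784), 0.887 for JUN (0.00136), 0.557 for JUNB (0.0409) and 0.645 for KLF10 (0.00522). For JUN, JUNB and KLF10 the knockout was called higher after differentiation and not called before it. For FOSB it was called lower before and not called after. Groups of 3 libraries were not tested for outliers.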

How the results depend on the processing

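The 20 stage calls (10 genes in each genotype) kept their direction and side of the threshold in all 17 alternatives each. Of 840 refitted values of a gene, 801 kept both, 13 lost a call, 11 gained one and 15 changed sign, none of the last called.

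With library sizes alone, genes called in knockout against control after differentiation were 1843 higher and 4826 lower in place of 2882 and 2805 (27.6% higher in place of 50.7%), and in the interaction 644 and 2146 in place of 1079 and 1148 (23.1% higher in place of 48.5%). The share called higher moved from 50.3% to 35.1% for differentiation in knockout cells. Signs changed for FOSL2 (-0.029 after differentiation, and -0.063 in the interaction) and FOS (-0.056 in the interaction).

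Before differentiation, the 10 genes held 1 called higher, KLF6, with DESeq2 or with no filter, and 0 called lower in a fit of these groups alone. Without single libraries the count called higher ran from 0 to 1, that called lower from 0 to 1, and genes called higher from 1024 (without control replicate 1) to 1589. Fold changes that were not called and crossed 0 without single libraries ran from -0.063 to 0.119 for FOSL2, -0.080 to 0.194 for JUNB, -0.107 to 0.155 for IER2 and -0.021 to 0.125 for KLF10. In the interaction such ranges were -0.083 to 0.243 for FOS, -0.045 to 0.217 for FOSL2 and -0.254 to 0.008 for IER2. The interaction call of JUNB was lost with adjusted p from 0.0639 to 0.0939 in 7 such fits.

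As shares of counts without division by length, the JUN share after differentiation was 2.42 points higher in knockout than in control cells in place of 1.34.

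The replicate number is not said to mark a shared culture. Deviations of same-numbered libraries correlated between -0.018 and 0.251, over 0.1 in 10 of 18 pairs, and 10 of 12 libraries were nearest to their own number, a hint from the data only. With the replicate block KLF6 was called higher before differentiation (0.36, adjusted p = 0.0259), which made 1 of the 10 called higher, and no other call on the 10 changed. EGR1, at 22 to 90 counts per library, had standard errors of 0.17 to 0.22 in the 4 comparisons of groups and 0.28 in the interaction.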
